A study of Mus musculus with 6 samples.

Results

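The fibroblast growth factor (FGF) genes described here are 10 genes of the deposited raw count table, matched by symbol. They comprise the ligands *Fgf1*, *Fgf3*, *Fgf8*, *Fgf9* and *Fgf10*, the intracellular factors *Fgf11* and *Fgf12*, and the receptors *Fgfr1*, *Fgfr2* and *Fgfr3*. All 10 were found among the 54532 genes of the table, and all 10 were among the 19372 genes that passed edgeR's filter on low counts. RNA-seq was performed on individual mouse hearts at E9.5, 3 from *Smyd1-KO* embryos, which are homozygous for a null allele of *Smyd1*, the gene of a methyltransferase of striated muscle, and 3 from WT embryos. The allele is not conditional, so that every cell of the embryo carries it, and no treatment is named for either genotype. Whole dissected hearts were used, so that each library holds myocardium together with endocardium, epicardium, blood and any attached pharyngeal tissue. In such bulk samples, fewer cells of a type and less RNA per cell cannot be told apart.

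FGF ligands bind tyrosine kinase receptors together with heparan sulfate, and the receptors pass the signal through the adaptor FRS2, GRB2 and RAS to the ERK kinases. ERK induces the ETS factors *Etv4* and *Etv5* and, as brakes on the same cascade, Sprouty proteins and the dual-specificity phosphatase DUSP6. In the embryonic heart, FGF8 and FGF10 mark and expand the second heart field, the progenitors that add the right ventricle and outflow tract, and FGF9 from endocardium and epicardium promotes myocardial proliferation through FGFR1 and FGFR2. FGF11 and FGF12 belong to the FGF homologous factors, which lack a signal peptide, remain in the cell and bind voltage-gated sodium channels.

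The edgeR quasi-likelihood test compared the genotypes in all 19372 genes, with Benjamini-Hochberg adjustment. A gene was called where the adjusted *P* was below 0.05 and the log2 fold change reached 0.5 in either direction. Of the 10 FGF genes, 1 was called, *Fgf11*, which was 4.78-fold higher in *Smyd1-KO* hearts. Among all tested genes, 4.28% were called in either direction, 2.86% higher and 1.42% lower. *Fgf9*, *Fgf12* and *Fgfr2* had fold changes of 1.86, 1.74 and 1.58 with an unadjusted *P* under 0.05 that did not hold after adjustment. An unadjusted *P* this low was found for 25.1% of all tested genes. DESeq2 called these 3 genes as well as *Fgf11*, all higher, against 9.29% of all genes with an adjusted *P* in either direction and 5.98% higher. In these same 4 genes every *Smyd1-KO* heart was above every WT heart, as it was in 15.9% of all tested genes. The remaining 6 genes overlapped between the genotypes. The median log2 fold change of the 10 genes was 0.55, against 0.00 over all tested genes.

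The libraries held 48627825 to 64217529 counts. The FGF genes rested on as few as 10 counts (*Fgf3* in WT heart 1) and as many as 11351 (*Fgfr1* in WT heart 3). *Smyd1* itself was measured at 101 to 222 CPM (the count per library total, scaled by edgeR's TMM factors) in *Smyd1-KO* and at 270 to 414 CPM in WT hearts (log2 fold change -1.01, adjusted *P*=0.0973 by edgeR). The defining cardiomyocyte markers were present in every heart, and *Smyd1-KO* heart 1 stood apart with the lowest summed level of 10 such markers, 8765 CPM, against 11625 to 19369 CPM in the other hearts. Markers of red blood cells summed to 27.6 to 276 CPM in *Smyd1-KO* and 727 to 953 CPM in WT hearts. Heart 1 of each genotype had *Xist* below 3 CPM and reads on Y-linked genes, so that both genotypes held 1 male and 2 female hearts. The Y-linked genes *Ddx3y*, *Eif2s3y*, *Kdm5d* and *Uty* were at 6.29 to 12.4 CPM in *Smyd1-KO* heart 1 and at 19.8 to 54 CPM in WT heart 1.

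The promoters of 3 genes are shown because these genes had the largest change (*Fgf11*), a receptor difference (*Fgfr2*) and the largest fold change among the secreted ligands (*Fgf9*). The sequences are RefSeq's for GRCm38.p6, run 5′ to 3′ on the strand of the gene, and span 250 bases before to 50 bases from the start site. Capitals mark ACGTG or GCGTG on either strand, the core of hypoxia response elements. In *Fgfr2* the capitals are a single palindrome that holds ACGTG on both strands. The *Fgf11* window is chr11:69802231-69802530 on the reverse strand, and its start site lies 423 bases upstream of the start of the GENCODE gene. The *Fgfr2* window is chr7:130266759-130267058 on the reverse strand, with the start site at 130266808, far inside the GENCODE gene that was counted, which begins at 133123350. The *Fgf9* window is chr14:58072436-58072735 on the forward strand, with the start site at 58072686, inside a GENCODE gene that begins at 58070547.
*Fgf11*: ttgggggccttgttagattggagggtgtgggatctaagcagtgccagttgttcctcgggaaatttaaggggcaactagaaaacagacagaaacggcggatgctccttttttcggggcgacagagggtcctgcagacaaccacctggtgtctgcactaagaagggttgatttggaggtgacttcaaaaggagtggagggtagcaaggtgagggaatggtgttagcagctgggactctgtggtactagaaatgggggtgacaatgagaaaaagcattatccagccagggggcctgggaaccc
*Fgfr2*: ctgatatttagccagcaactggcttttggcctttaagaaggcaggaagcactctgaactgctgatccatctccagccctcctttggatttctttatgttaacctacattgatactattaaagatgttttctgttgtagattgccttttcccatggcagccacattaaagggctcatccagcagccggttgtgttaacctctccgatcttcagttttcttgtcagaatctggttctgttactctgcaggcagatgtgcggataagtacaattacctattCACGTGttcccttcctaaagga
*Fgf9*: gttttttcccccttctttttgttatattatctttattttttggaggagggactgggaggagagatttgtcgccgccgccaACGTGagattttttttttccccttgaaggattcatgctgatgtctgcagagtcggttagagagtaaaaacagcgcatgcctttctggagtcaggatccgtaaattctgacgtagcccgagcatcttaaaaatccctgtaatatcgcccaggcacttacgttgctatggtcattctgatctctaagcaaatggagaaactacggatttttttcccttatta
The core was absent from these 300 bases of *Fgf11*. It began at position -170 in *Fgf9* and at position 30 on the gene's strand in *Fgfr2*, counted from 1 at the start site. Of the 7 FGF genes with an entry, 5 held the core in at least 1 window, as did 46.7% of all 27025 genes in the RefSeq table. Counted by window, 9 of 11 held it, against 43.8% of all 32851 windows, and *Fgf12* alone has 4 of the 11. *Fgf1*, *Fgf8* and *Fgfr1* are named only.

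**Figure D1:**
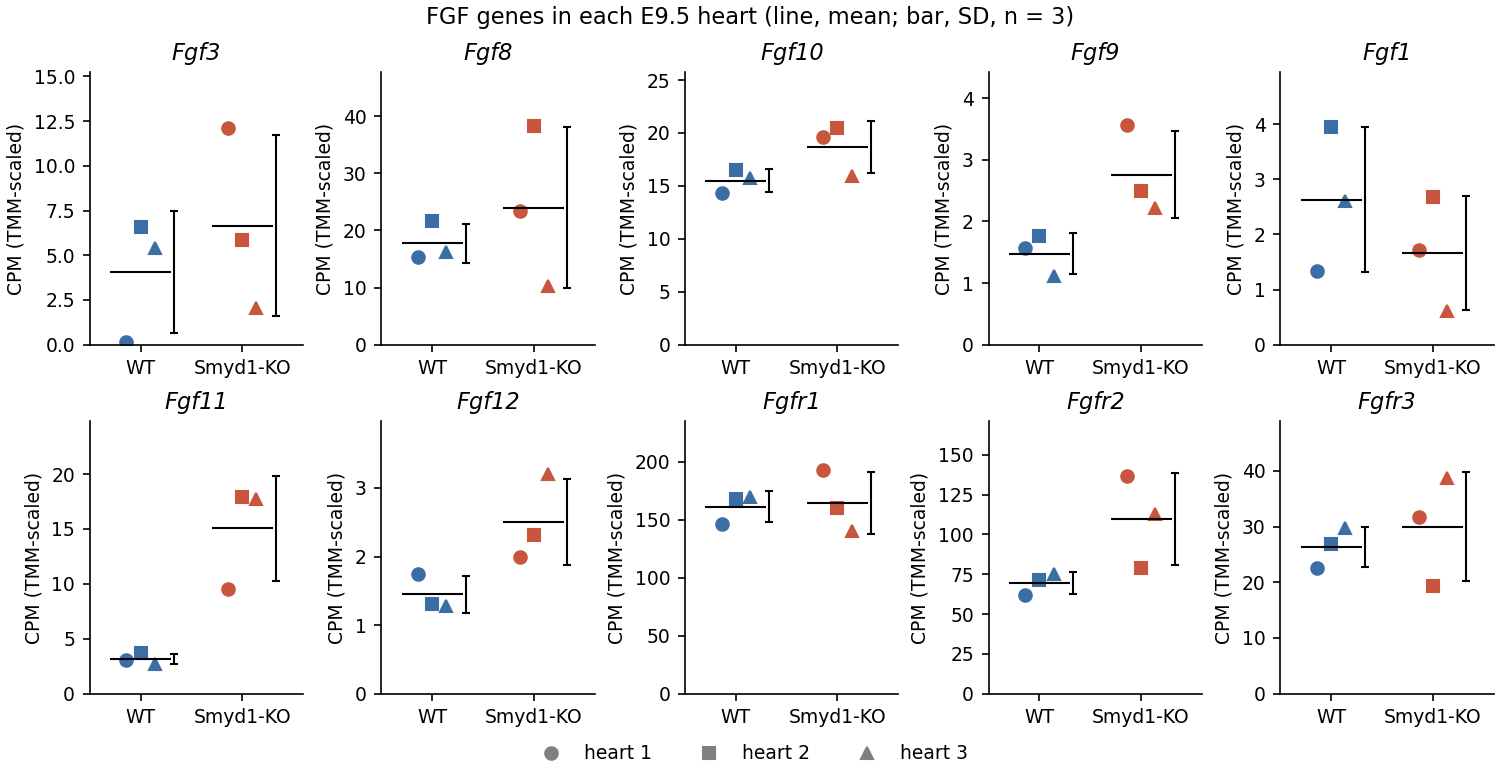
TMM-scaled CPM of the 10 FGF genes in each heart, on linear axes from 0, with circles, squares and triangles for hearts 1, 2 and 3 of each genotype (blue, WT; red, *Smyd1-KO*), a line at the mean and a bar for the SD (n=3). The *Fgf11* panel shows all 3 *Smyd1-KO* hearts, at 9.56 to 17.9 CPM, above all 3 WT hearts, at 2.73 to 3.67 CPM, whereas the hearts of the genotypes are intermingled for *Fgf1*, *Fgf3*, *Fgf8* and *Fgfr1*.

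Among the intracellular factors, *Fgf11* (ENSMUSG00000042826) occupies bases 69796068 to 69801857 of chromosome 11 (reverse strand). Its expression was 3.04, 3.67 and 2.73 CPM in WT hearts 1, 2 and 3 and 9.56, 17.9 and 17.7 CPM in *Smyd1-KO* hearts 1, 2 and 3. The lowest *Smyd1-KO* heart was thus still above the highest WT heart, and *Smyd1-KO* hearts 2 and 3 were nearly equal. *Smyd1-KO* hearts averaged 15 ± 4.75 CPM and WT hearts 3.15 ± 0.478 CPM (SD, n=3), a log2 fold change of 2.26 (standard error 0.27, 95% interval 1.62 to 2.90, adjusted *P*=0.00842 by edgeR). *Smyd1-KO* heart 1, which had the lowest *Fgf11* of its genotype, also had the lowest cardiomyocyte marker sum, and leaving that heart out gave 2.50 (adjusted *P*=0.00103 by edgeR). The part of the cell composition in the difference was not tested. The call was lost without WT heart 2 (log2 fold change 2.38, adjusted *P*=0.0522) and without WT heart 3 (2.17, adjusted *P*=0.0546), and was kept without each of the other 4 hearts.

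*Fgf12* (ENSMUSG00000022523) (reverse strand of chromosome 16, bases 28160098 to 28753068) was expressed at a lower level. The 3 WT hearts had 1.75, 1.31 and 1.28 CPM, and *Smyd1-KO* hearts 1, 2 and 3 had 2, 2.32 and 3.21 CPM. The hearts of the genotypes did not overlap, a separation found in 1 direction or the other in 31.3% of all tested genes. Its log2 fold change of 0.80 (95% interval 0.20 to 1.40, adjusted *P*=0.112 by edgeR) was not called, and DESeq2 gave an adjusted *P* of 0.0415. Per kilobase of merged exons, *Fgf11* exceeded *Fgf12* by 3.55, 5.72 and 4.36 times in WT hearts and by 9.77, 15.7 and 11.2 times in *Smyd1-KO* hearts. This ratio within a heart was 2.69-fold higher in *Smyd1-KO* hearts, with all 3 above all WT hearts (*P*=0.1 by a two-sided exact permutation test, which with 3 hearts a group cannot give a lower value). Of the other homologous factors, *Fgf13* ranged from 20 to 25.2 CPM in *Smyd1-KO* and from 21.2 to 27.4 CPM in WT hearts (log2 fold change -0.10, 95% interval -0.41 to 0.22, edgeR).

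By the rule fixed for the FGF gene with the lowest *P*, the genes whose log2 CPM followed *Fgf11* most closely over the 6 hearts were *Ankzf1*, *Trib3*, *Dnajc5* and *Mxi1*, with Pearson's r from 0.9948 to 0.9972 among 13049 genes compared. The 6 points fall into 2 genotypes, so that r mainly holds the difference between them, and 385 genes had an r above 0.95. *Ankzf1* encodes a factor of ribosome quality control, *Trib3* a pseudokinase induced by cell stress, *Dnajc5* a co-chaperone of secretory vesicles and *Mxi1* an antagonist of MYC. Their own log2 fold changes were 0.61, 3.62, 0.44 and 1.24.

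Of the secreted ligands of the endocardium and epicardium, *Fgf9* (ENSMUSG00000021974) spans bases 58070547 to 58112720 of chromosome 14 (forward strand). WT hearts 1, 2 and 3 had 1.56, 1.76 and 1.11 CPM and *Smyd1-KO* hearts 3.56, 2.49 and 2.22 CPM, which rest on 74 to 173 counts per heart. Every *Smyd1-KO* heart was above every WT heart. The log2 fold change of 0.90 (95% interval 0.26 to 1.54, adjusted *P*=0.101 by edgeR) was not called, and DESeq2 gave it an adjusted *P* of 0.0234. Omitting single hearts gave log2 fold changes of 0.67 (without *Smyd1-KO* heart 1) to 1.04 (without WT heart 2). Beside it, 8 epicardial and proepicardial markers summed to 188 to 349 CPM in *Smyd1-KO* and 145 to 179 CPM in WT hearts, and edgeR called 0 of the 8, with 3 at an unadjusted *P* under 0.05, and DESeq2 called 3, all higher. *Smyd1-KO* heart 1 had the highest *Fgf9* and the lowest epicardial sum of its genotype. Of 10 endothelial and endocardial markers, which summed to 780 to 1229 CPM in *Smyd1-KO* and 739 to 899 CPM in WT hearts, edgeR called 1, *Flt1* (log2 fold change 1.15, adjusted *P*=0.0192). DESeq2 called 2 of them higher and 2 lower, and the endocardial genes *Nfatc1* and *Npr3* had log2 fold changes of -0.83 and -0.52 (adjusted *P*=0.0687 and 0.0567 by edgeR). Over all genes, edgeR called 4.28% and DESeq2 9.29% in either direction, and 25.1% had an unadjusted *P* under 0.05 by edgeR. No marker of either list was at 0 in all hearts, and their part in the *Fgf9* difference was not tested.

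The ligands of the second heart field and pharyngeal region varied among hearts of the same genotype. *Fgf8* (ENSMUSG00000025219) (reverse strand of chromosome 19, bases 45736798 to 45742915) was measured at 15.3, 21.7 and 16.2 CPM in WT hearts and at 23.4, 38.3 and 10.2 CPM in *Smyd1-KO* hearts. *Smyd1-KO* hearts 2 and 3 were the highest and the lowest of all 6. The log2 fold change was 0.44 (95% interval -0.55 to 1.43, adjusted *P*=0.564 by edgeR), and without *Smyd1-KO* heart 2 it was -0.08. *Fgf3* (ENSMUSG00000031074), which acts in the pharyngeal region and otic placode, spans bases 144838083 to 144844436 of chromosome 7 (forward strand). Its values were 0.168, 6.58 and 5.42 CPM in WT hearts 1, 2 and 3, and 12.1, 5.85 and 2.03 CPM in the *Smyd1-KO* libraries 1, 2 and 3. Between the lowest and the highest WT heart *Fgf3* differed 39.2-fold, and its log2 fold change of 0.71 (95% interval -1.74 to 3.17, adjusted *P*=0.715 by edgeR) had the widest interval of the 10 genes.

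*Fgf10* (ENSMUSG00000021732) (forward strand of chromosome 13, bases 118669791 to 118792115) was the steadiest of the secreted ligands. Its values were 14.3, 16.5 and 15.7 CPM in WT and 19.6, 20.5 and 15.9 CPM in *Smyd1-KO* hearts. *Smyd1-KO* heart 3 lay within the WT range and the other 2 above it, and the log2 fold change was 0.27 (95% interval -0.04 to 0.58, adjusted *P*=0.249 by edgeR). The pooled SD of log2 CPM within the genotypes was 0.16 for *Fgf10*, 0.71 for *Fgf8* and 2.20 for *Fgf3*, against a median of 0.22 over all tested genes.

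Markers of the second heart field and pharyngeal mesoderm, a list of 10 genes without FGF genes, summed to 155, 274 and 271 CPM in WT hearts 1, 2 and 3 and to 368, 327 and 131 CPM in *Smyd1-KO* hearts 1, 2 and 3. All 10 were tested, 0 were called by edgeR or DESeq2, and none was at 0 in all hearts. An unadjusted *P* under 0.05 was found for 0 of them, against 25.1% of all tested genes. *Tbx1*, a T-box factor of the pharyngeal region, was measured at 20.5, 59.3 and 53.7 CPM in WT and 98.4, 78.1 and 10.7 CPM in *Smyd1-KO* hearts. Within each genotype, *Tbx1* and *Fgf3* put the 3 hearts in the same order. Pharyngeal endoderm and ectoderm markers, another list of 10, summed to 448, 443 and 456 CPM in WT hearts 1, 2 and 3. In *Smyd1-KO* hearts 1, 2 and 3 they summed to 510, 580 and 842 CPM, of which *Krt8* alone held 339, 387 and 724. Of these 10, edgeR called 0, and DESeq2 called *Krt8* higher and *Nkx2-1* lower. Over all genes, edgeR called 4.28% and DESeq2 9.29% in either direction. The list was divided over the hearts. *Pax9* was lowest of its genotype in WT heart 1 (0.957 CPM) and *Smyd1-KO* heart 3 (1.84 CPM), as were *Shh*, *Epcam*, *Cdh1* and *Pax1*. *Foxa1* and *Foxa2* were also lowest in WT heart 1, but among *Smyd1-KO* hearts they were lowest in heart 2. *Nkx2-1* and *Foxe1* were lowest in WT heart 3 and *Smyd1-KO* heart 3, and *Krt8* was highest in *Smyd1-KO* heart 3. The part of pharyngeal tissue in the spread of *Fgf3* and *Fgf8* was not tested.

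**Figure D2:**
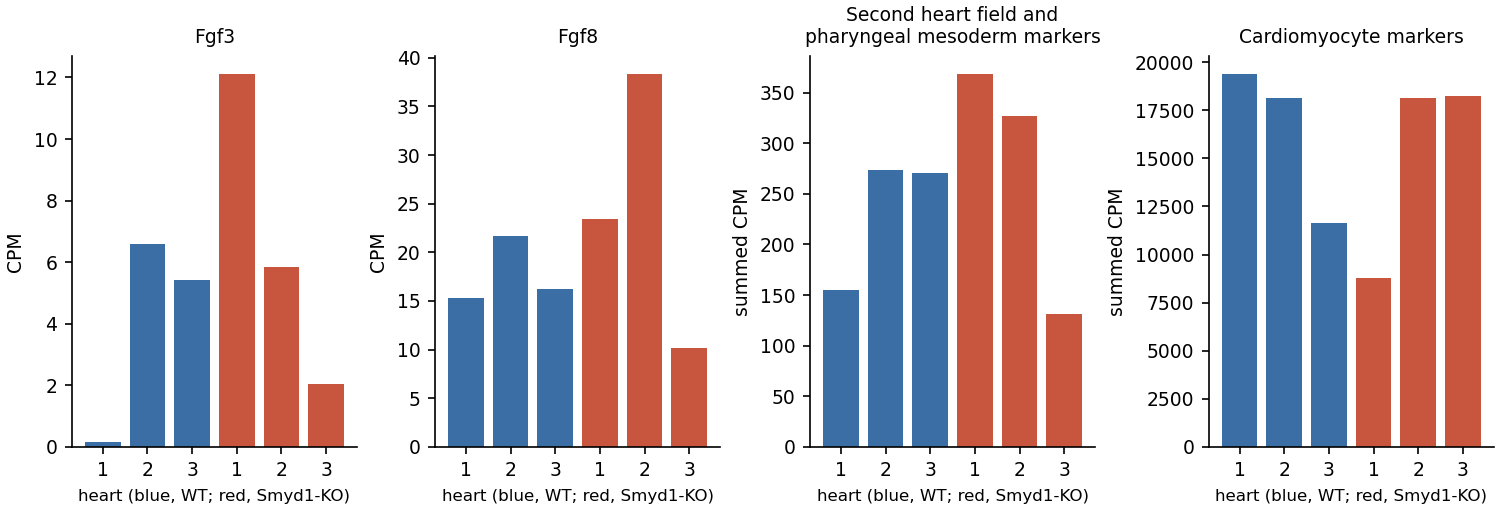
Bars from 0 show, for each heart (blue, WT hearts 1 to 3; red, *Smyd1-KO* hearts 1 to 3), the CPM of *Fgf3* and *Fgf8* and the summed CPM of 10 second heart field and pharyngeal mesoderm markers and of 10 cardiomyocyte markers. WT heart 1 (155 CPM) and *Smyd1-KO* heart 3 (131 CPM) had the lowest sums of these mesoderm markers and the lowest *Fgf3* of their genotypes.

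*Fgf1* (ENSMUSG00000036585), an acidic FGF that lacks a signal peptide and binds all the receptors, spans bases 38838673 to 38929472 of chromosome 18 (reverse strand). WT hearts had 1.33, 3.95 and 2.61 CPM, and *Smyd1-KO* hearts had 1.71, 2.67 and 0.613 CPM. It was the 1 gene of the 10 with a negative log2 fold change, -0.66 (95% interval -1.99 to 0.67, adjusted *P*=0.51 by edgeR), and its hearts overlapped between the genotypes. Leaving out single hearts gave -1.19 (without *Smyd1-KO* heart 2) to -0.24 (without WT heart 2).

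Of the receptors, *Fgfr2* (ENSMUSG00000030849), whose splice forms bind FGF10 in epithelium and FGF9 in mesenchyme, is transcribed from the reverse strand of chromosome 7. WT hearts had 62.2, 71.3 and 75.2 CPM, and *Smyd1-KO* hearts 1, 2 and 3 had 137, 79.2 and 113 CPM. All *Smyd1-KO* hearts were above all WT hearts, although *Smyd1-KO* heart 2 was close to the WT range. *Smyd1-KO* hearts averaged 110 ± 29.1 CPM and WT hearts 69.6 ± 6.66 CPM (SD, n=3). The log2 fold change of 0.66 (standard error 0.19, 95% interval 0.21 to 1.10, adjusted *P*=0.0907 by edgeR) was not called. It was called without *Smyd1-KO* heart 2 (0.85, adjusted *P*=0.0431 by edgeR) and by DESeq2 (adjusted *P*=0.0142). Without *Smyd1-KO* heart 1 it was 0.46 (adjusted *P*=0.112 by edgeR). The GENCODE gene runs from 130162451 to 133123350 and shares 314 exonic bases with *Ctbp2*, on the same strand, for which edgeR gave -0.12 (adjusted *P*=0.523). How reads on those bases were assigned is not given in the sources used here.

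*Fgfr1* (ENSMUSG00000031565, forward strand of chromosome 8 from 25513654 to 25575718), the main receptor of the mesoderm, was measured at 146, 168 and 170 CPM in WT and at 193, 160 and 140 CPM in *Smyd1-KO* hearts. The *Smyd1-KO* hearts lay on both sides of the WT hearts (log2 fold change 0.03, 95% interval -0.28 to 0.34, adjusted *P*=0.924 by edgeR). *Fgfr3* (ENSMUSG00000054252, forward strand of chromosome 5 from 33721674 to 33737068) was measured at 22.6, 26.8 and 29.8 CPM in WT and at 31.8, 19.4 and 38.7 CPM in *Smyd1-KO* hearts. Its *Smyd1-KO* hearts also lay on both sides of WT (log2 fold change 0.18, 95% interval -0.39 to 0.75, adjusted *P*=0.687 by edgeR).

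The receptor composition was nearly constant in WT hearts. Per kilobase of merged exons, *Fgfr2* made up 25.2%, 24.9% and 25.4% of the summed level of the 3 receptors in WT hearts and 35.6%, 28.8% and 35.8% in *Smyd1-KO* hearts. The ratio of *Fgfr2* to *Fgfr1* was 0.408, 0.405 and 0.422 in WT hearts and 0.679, 0.472 and 0.771 in *Smyd1-KO* hearts. It does not depend on library scaling, and was 1.52-fold higher in *Smyd1-KO* hearts with no overlap (*P*=0.1, again the lowest a two-sided exact permutation test can give here). The ratio of *Fgfr3* to *Fgfr1* ran from 0.214 to 0.241 in WT and from 0.167 to 0.382 in *Smyd1-KO* hearts (log2 difference 0.11, *P*=0.8 by the same exact test), and the difference was -0.21 without *Smyd1-KO* heart 3.

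**Figure D3:**
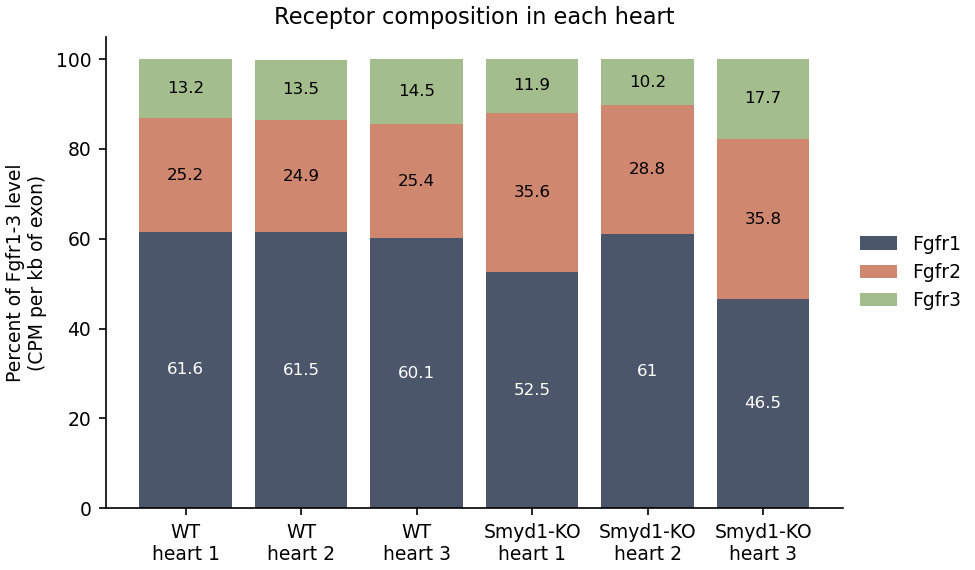
Stacked bars give the percent of the summed *Fgfr1*, *Fgfr2* and *Fgfr3* level, as CPM per kilobase of merged exons, in each of the 6 hearts. The *Fgfr2* part is 24.9% to 25.4% in the WT hearts and 28.8% to 35.8% in the *Smyd1-KO* hearts.

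Ordered by the level per kilobase of merged exons (RPKM, computed here), the genes ran in WT hearts from *Fgfr1* (16.3 RPKM) and *Fgf8* (13.1) through *Fgfr2* (6.74), *Fgfr3* (3.69), *Fgf10* (3.36), *Fgf3* (1.74) and *Fgf11* (1.03) to *Fgf1* (0.482), *Fgf9* (0.318) and *Fgf12* (0.233). Neighbors in this order overlapped between hearts for *Fgfr1* and *Fgf8*, *Fgfr3* and *Fgf10*, *Fgf3* and *Fgf11*, *Fgf1* and *Fgf9*, and *Fgf9* and *Fgf12*. In *Smyd1-KO* hearts, *Fgf11* (4.94 RPKM) moved from rank 7 to rank 4, where its hearts overlapped those of *Fgfr3* (4.18 RPKM). *Fgf8* (17.7 RPKM) and *Fgfr1* (16.7 RPKM) were highest and overlapped each other.

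The other FGF family genes comprised 17 genes, of which 14 passed the filter on low counts. Of these, 1 was called, higher in *Smyd1-KO* hearts, against 4.28% of all tested genes in either direction. A positive log2 fold change was found for 8 of the 14, and for 9641 of all 19372 tested genes. DESeq2 called 3, all higher, against 9.29% of all genes with an adjusted *P* in either direction. The gene called by edgeR was *Fgf23*, an endocrine regulator of phosphate, measured at 0.403, 0.284 and 0.24 CPM in WT and 1.03, 1.73 and 2.47 CPM in *Smyd1-KO* hearts, or 16 to 24 against 50 to 141 counts. The groups did not overlap, and edgeR estimated a log2 fold change of 2.49 (95% interval 1.57 to 3.42, adjusted *P*=0.019 by edgeR). The *Fgf23* call was lost without *Smyd1-KO* heart 2, WT heart 2 or WT heart 3, at adjusted *P*-values of 0.0592, 0.107 and 0.0874 by edgeR. *Fgf18*, a ligand of skeletal and lung mesenchyme, had a log2 fold change of 1.17 with overlapping hearts (adjusted *P*=0.133 by edgeR). It was called by DESeq2 (adjusted *P*=0.0337) and by edgeR without *Smyd1-KO* heart 1 (1.51, adjusted *P*=0.0233). *Fgf6*, a ligand of skeletal muscle, had -1.31 (adjusted *P*=0.0946), and the decoy receptor gene *Fgfrl1* -0.32 (adjusted *P*=0.112), both with no overlap.

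**Figure D4:**
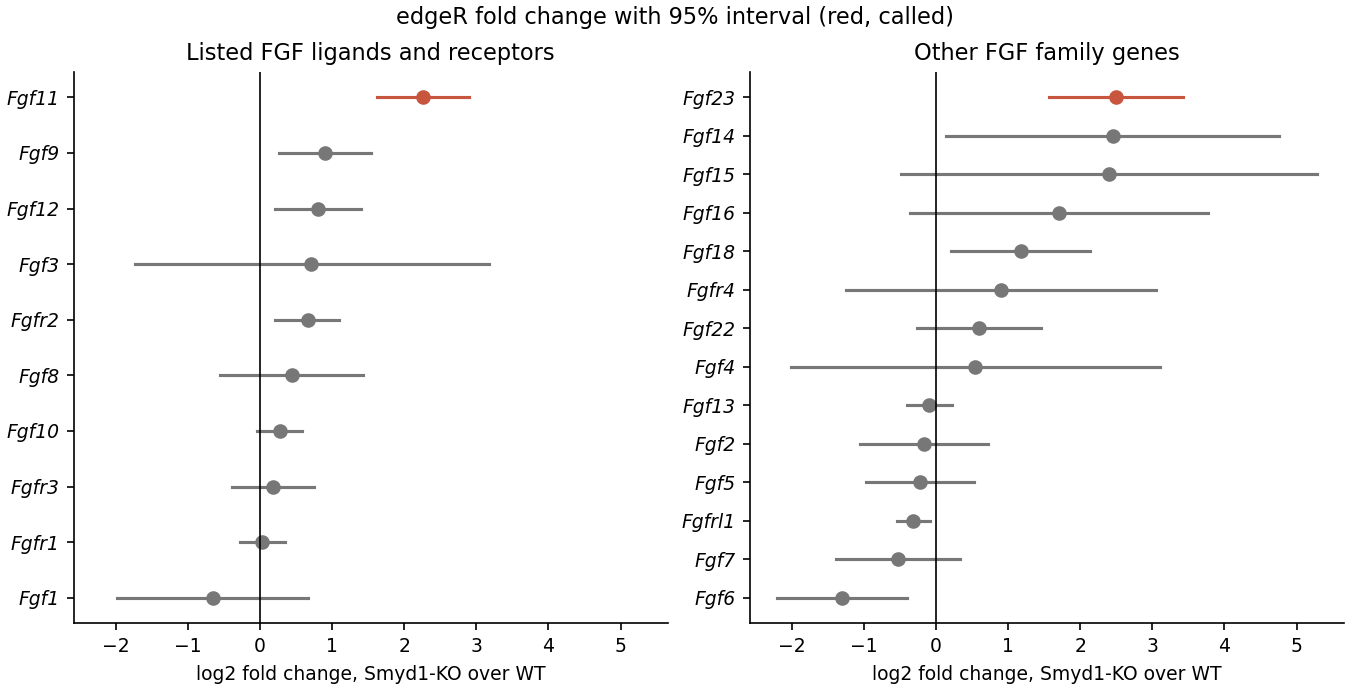
Points are edgeR log2 fold changes (*Smyd1-KO* over WT) and lines their 95% intervals for the 10 FGF genes (left) and the 14 tested other family genes (right), with called genes in red. *Fgf11*, at 2.26, and *Fgf23*, at 2.49, are the 2 called genes, and *Fgf3* has the widest interval on the left, from -1.74 to 3.17.

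Transcriptional targets and feedback inhibitors of FGF-ERK signaling were read from a list of 16 genes, all of which were tested. Of these, 2 were called, both higher, against 4.28% of all tested genes in either direction. An unadjusted *P* under 0.05 was found for 6, all higher, against 25.1% of all tested genes in either direction. The median log2 fold change was 0.30, against 0.00 over all tested genes. *Egr1*, an immediate early gene that many stimuli induce, was measured at 5.24, 4.76 and 3.71 CPM in WT and 7.51, 13.2 and 13.3 CPM in *Smyd1-KO* hearts (log2 fold change 1.31, adjusted *P*=0.0357 by edgeR). *Dusp4*, a phosphatase of ERK, rose from 88.2 ± 13.9 to 138 ± 15.3 CPM (SD, n=3; log2 fold change 0.64, adjusted *P*=0.0431 by edgeR). *Dusp6* was measured at 87.1, 77.9 and 79.8 CPM in WT and 105, 139 and 96.7 CPM in *Smyd1-KO* hearts (log2 fold change 0.48, adjusted *P*=0.0936 by edgeR), and *Dusp5* had a log2 fold change of 0.36 (adjusted *P*=0.12). Both had all *Smyd1-KO* hearts above all WT hearts. The ETS factor genes were not called and overlapped between the genotypes. *Etv4* was measured at 17.5, 28.9 and 22.2 CPM in WT and 20.6, 24 and 12.8 CPM in *Smyd1-KO* hearts (log2 fold change -0.26, 95% interval -0.88 to 0.36), and the log2 fold changes of *Etv5* and *Etv1* were -0.08 (95% interval -0.53 to 0.38) and 0.13 (95% interval -0.23 to 0.49). Of the feedback inhibitors, *Spry1*, *Spry2* and *Spry4* had log2 fold changes of 0.58, 0.25 and 0.08 (adjusted *P*=0.222, 0.348 and 0.836 by edgeR), and the receptor antagonist gene *Il17rd* -0.01 (adjusted *P*=0.993). *Egr1* was called only with all hearts or without *Smyd1-KO* heart 1, with adjusted *P*-values of 0.0722 to 0.144 in the other 5 fits by edgeR. *Dusp4* was lost without *Smyd1-KO* heart 2 or 3 or WT heart 2 or 3, at adjusted *P*-values of 0.102 to 0.166 by edgeR.

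Of 20 receptor adaptors and members of the RAS-ERK cascade, 0 were called by edgeR and 1 by DESeq2. Over all genes these shares were 4.28% and 9.29%. An unadjusted *P* under 0.05 was found for 7 (3 higher and 4 lower), against 25.1% of all tested genes. The median log2 fold change of the 20 genes was 0.02. *Map2k1*, the MEK kinase, was measured at 132 to 172 CPM in WT and 189 to 231 CPM in *Smyd1-KO* hearts (log2 fold change 0.52, adjusted *P*=0.0606 by edgeR). The adaptor gene *Shc1* had a log2 fold change of 0.42 (adjusted *P*=0.056), the ERK gene *Mapk3* 0.37 (adjusted *P*=0.0713) and *Hras* -0.35 (adjusted *P*=0.0607), each with no overlap between the genotypes.

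Of 25 co-receptor, binding protein and heparan sulfate genes, 2 were called, both higher, against 4.28% of all tested genes in either direction. For 7 the unadjusted *P* was under 0.05, all higher, against 25.1% of all tested genes in either direction. The median log2 fold change of the 25 genes was 0.23. *Sdc4*, which encodes the heparan sulfate proteoglycan syndecan-4 of the cell surface, was measured at 9.7, 7.56 and 8.23 CPM in WT and 25.9, 27.9 and 34.2 CPM in *Smyd1-KO* hearts. It was 3.45-fold higher (log2 fold change 1.79, 95% interval 1.43 to 2.15, adjusted *P*=0.00264 by edgeR) and was called without each heart in turn. *Gpc6*, a glypican, was measured at 14.6, 14.5 and 18.6 CPM in WT and 27.6, 23.4 and 28.3 CPM in *Smyd1-KO* hearts (log2 fold change 0.73, adjusted *P*=0.0322 by edgeR). The *Gpc6* call was lost without any heart other than *Smyd1-KO* heart 1, at adjusted *P*-values of 0.054 to 0.142 by edgeR. *Fgfbp1*, which releases FGFs from the matrix, was low, at 0.142 to 0.319 CPM in WT and 0.42 to 0.575 CPM in *Smyd1-KO* hearts (adjusted *P*=0.113 by edgeR), and *Sdc2* had a log2 fold change of 0.39 (adjusted *P*=0.107).

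The voltage-gated sodium channel genes, partners of FGF11 and FGF12, comprised 12 genes, of which 10 were tested and 0 called by edgeR or DESeq2, with 0 at an unadjusted *P* under 0.05. Their log2 fold changes ran from -0.55 to 0.72 with a median of 0.15. Among them, *Scn2b* had a log2 fold change of 0.40 (adjusted *P*=0.255), *Scn4a* -0.55 (adjusted *P*=0.268) and *Scn4b* 0.72 (adjusted *P*=0.456), all by edgeR. Over all genes, edgeR called 4.28% and DESeq2 9.29% in either direction, and 25.1% had an unadjusted *P* under 0.05 by edgeR.

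**Figure D5:**
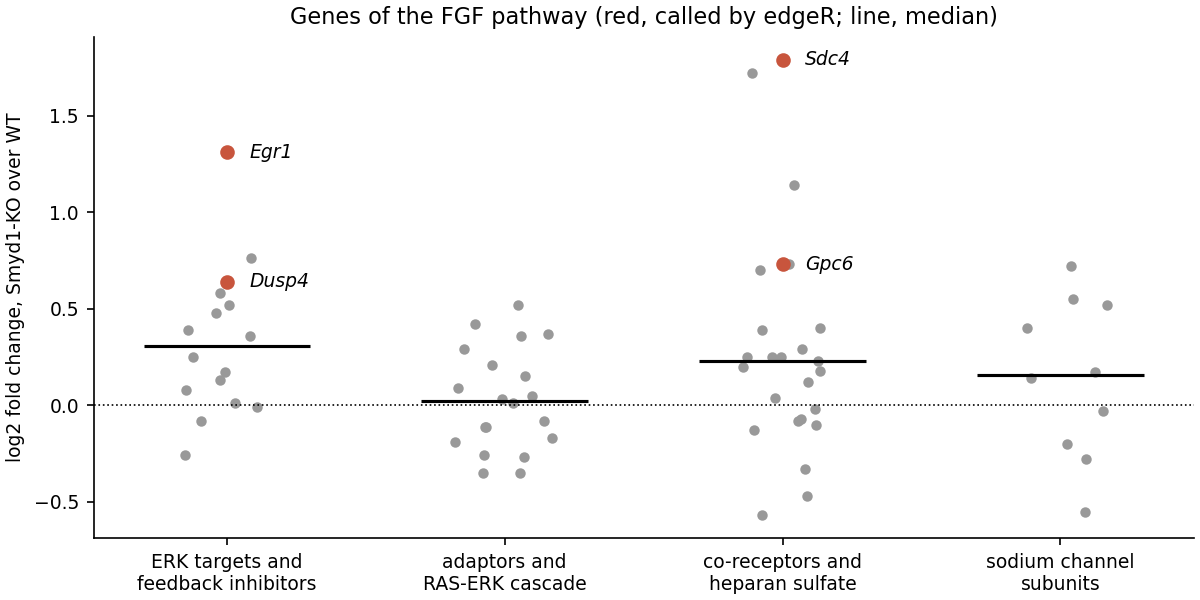
Each point is the edgeR log2 fold change (*Smyd1-KO* over WT) of 1 tested gene in the 4 pathway lists, with called genes in red and named and a line at each list's median, at 0.30, 0.02, 0.23 and 0.15 from left to right. *Sdc4* (1.79), *Egr1* (1.31), *Gpc6* (0.73) and *Dusp4* (0.64) are the called genes, and all are above 0.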

How the data were processed

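RNA-seq was measured in 3 *Smyd1-KO* and 3 WT hearts at E9.5, 1 library per embryo, with genotype and number from the labels. The authors selected poly A RNA, sequenced paired-end reads and aligned them to mm10 with STAR. The first table holds the raw counts per gene, deposited without normalization, with total counts of 48627825 to 64217529 per heart. The second holds a normalized signal, which the authors made by dividing the counts by 1 size factor per heart. It gave a single factor per heart (0.83 to 1.14) and was used for this check only. The counting tool, annotation release and strand setting are not given in the sources used here, so reads on overlapping genes may be shared.

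Raw counts were analyzed in R 4.3.3 with edgeR 4.0.16, using filterByExpr, TMM, the quasi-likelihood test and Benjamini-Hochberg adjustment over 19372 genes. The standard error is the log2 fold change divided by the square root of F, and intervals have 95% confidence. Log2 CPM used a prior count of 2. Levels per kilobase used merged exons of GENCODE vM21 (GRCm38), in which 54495 of 54532 genes were found. Replicates differed by more than sampling noise. Ratios were tested by exact permutation over hearts. Plots were drawn with matplotlib 3.10.9. The fit was tested on simulated data with planted changes.

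The FGF genes and gene lists were chosen with earlier results of these data known. The genes named are all 10 FGF genes, every called gene of the other lists and, where fewer than 4 were called, those with the lowest *P* up to 4 a list. Of the genes this rule takes, 1 is not reported here. For the FGF gene with the lowest *P*, the 4 best correlated genes were also named, among those whose log2 CPM averaged 1 or more. *Fgf13*, *Fgf2*, *Fgf4*, *Fgf5*, *Fgf14*, *Fgf15*, *Fgf16*, *Fgfr4*, *Tbx1*, *Krt8*, *Nkx2-1*, *Pax9*, *Shh*, *Epcam*, *Cdh1*, *Pax1*, *Foxa1*, *Foxa2*, *Foxe1*, *Sox10*, *Foxd3*, *Ctbp2*, *Etv1*, *Etv4*, *Etv5*, *Spry1*, *Spry2*, *Spry4*, *Il17rd*, *Flt1*, *Nfatc1*, *Npr3*, *Ddx3y*, *Eif2s3y*, *Kdm5d* and *Uty* were named after their values were seen. Alternatives were DESeq2 1.42.0, RLE or upper-quartile scaling, omission of mitochondrial and haemoglobin genes, no filter or at least 10 counts in every heart, no limit on the fold change, the replicate number as a block, leaving out each heart, and 1 count added in the ratios.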

Additional observations from a re-analysis of the deposited data

How the results depend on the processing

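The counts of calls were the results that moved most. Over all genes, 830 were called by edgeR and 1749 by DESeq2, and 97 to 1256 with each heart left out in turn (97 without WT heart 2, 1256 without *Smyd1-KO* heart 1). Of the 10 FGF genes, 1 was called by edgeR, 4 by DESeq2 (*Fgf9*, *Fgf11*, *Fgf12* and *Fgfr2*), 2 with no filter on low counts (*Fgf11* and *Fgfr2*) and 0 to 2 with each heart left out. The causes were not tested. Same-numbered hearts are different embryos, and their deviations from the genotype means had correlations of -0.216, -0.0538 and -0.182. With the replicate number as a block, 59 genes and 0 FGF genes were called by edgeR, all 59 among the 830, and 4 FGF genes had an unadjusted *P* under 0.05, with *Fgf11* at a log2 fold change of 2.21 (adjusted *P*=0.0662 by edgeR). The block also ended the calls of *Fgf23*, *Egr1*, *Dusp4*, *Sdc4* and *Gpc6*, at adjusted *P*-values of 0.0501 to 0.157 by edgeR. Leaving out 1 heart turned the sign of *Fgf3* (-0.04 without *Smyd1-KO* heart 1), *Fgf8* (-0.08 without *Smyd1-KO* heart 2), *Fgfr1* (-0.10 without *Smyd1-KO* heart 1 and -0.03 without WT heart 1), *Fgfr3* (-0.05 without *Smyd1-KO* heart 3) and the *Fgfr3* to *Fgfr1* ratio, whose log2 difference then ran from -0.21 to 0.39. With single hearts left out, the upper ends were 1.25 for *Fgf3*, 0.80 for *Fgf8*, 0.13 for *Fgfr1* and 0.42 for *Fgfr3*. The other 6 FGF genes kept their sign under all 14 alternatives. Scaling by RLE or upper quartile, or without mitochondrial and haemoglobin genes, left *Fgf11* at 2.26. The fewest counts behind the FGF genes were those of *Fgf3* in WT heart 1 (10 counts) and of *Fgf1*, *Fgf9* and *Fgf12* (35 to 251 counts per heart), and 3 of 17 other family genes were too low for a test.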

Other observations

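WT heart 1 was low for a group of neighboring FGF genes on chromosome 7. *Fgf3* starts at 144838083, *Fgf4* at 144847367 and *Fgf15* at 144896531. *Fgf4* had 0 counts in WT heart 1, which allows up to 0.0504 CPM at that depth (3 counts, counting error only), and 1.86 to 3.82 CPM in the other 5 hearts. *Fgf15*, a ligand of the embryonic neural tube and pharyngeal region, had 0.201 CPM in WT heart 1, 2.74 and 2.13 CPM in WT hearts 2 and 3 and 22.7, 3.26 and 0.911 CPM in *Smyd1-KO* hearts 1, 2 and 3. Low values in WT heart 1 were not confined to this group. *Fgfr4*, outside it, was measured at 0.403, 3.67 and 2.58 CPM in WT and 6.56, 0.643 and 5.22 CPM in *Smyd1-KO* hearts. WT heart 1 was also the lowest of the 6 hearts for *Fgf16* (0.151 CPM) and for *Fgf10* of chromosome 13 (14.3 CPM). It was the highest of the 6 for *Fgf2* (1.56 CPM) and *Fgf5* (3 CPM).

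*Smyd1-KO* heart 1 was high for several family genes. *Fgf14* was measured at 1.79 CPM there and at 0.0504 to 0.237 CPM in the other hearts, and *Fgf16* at 2.24 CPM there, 2.18 CPM in *Smyd1-KO* heart 2 and 0.151 to 0.74 CPM in the other 4. The neural crest markers *Sox10* and *Foxd3* were at 51.6 and 11.9 CPM in the same heart, against at most 20.1 and 1.12 CPM in the others. The part of neural crest tissue in these values was not tested.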
